A study of Mus musculus with 5 samples.

Results

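Tumours of Th-Cre:MYC mice were compared with normal pancreas for 10 genes that make, package and take up the catecholamines and serotonin. These genes are Th, Ddc, Dbh, Pnmt, Tph1, Tph2, Slc18a1, Slc18a2, Slc6a2 and Slc6a4. They were taken by symbol from the deposited gene tables and are 10 of 55573 genes. The genes were grouped by function, with earlier results of these data known. The 3 tumours (replicates 1 to 3) came from animals that carry both TH-Cre, in which the tyrosine hydroxylase promoter drives the recombinase, and CAG-STOPflox/flox-MYC, in which Cre removal of a stop lets the CAG promoter express MYC. The 2 normal pancreas samples (replicates 1 and 2) came from Wild Type littermates with neither allele, per the genotype labels. Cre of this kind marks any cell that has used the tyrosine hydroxylase promoter, including in the past, and the MYC transcript then no longer depends on that promoter. Tumours were followed by ultrasound, and the labels give no age, sex, strain background or batch. The titles of tumour replicates 1 and 2 share a number that replicate 3 does not, and no label says whether they came from the same animal.

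The libraries differed in depth and in composition along with the tissue. Totals ran from 6611967 to 15074489 estimated counts in the tumours and were 48848987 and 51669489 in normal pancreas. The normal libraries were filled by digestive enzyme transcripts: 8 acinar markers summed to between 32.4 and 844 TPM (a level per transcript length, scaled to the same sum in each library) in the tumours, against 377989.6 and 374694 TPM in normal pancreas. TMM scaling, which sets the libraries on a common level through the bulk of genes, gave factors of 2.19 to 2.57 in the tumours and of 0.271 and 0.263 in normal pancreas. CPM values below are counts scaled to the library size after TMM. With scaling by total counts only, the median gene rose by 3.55 on the log2 scale, against 0.38 with TMM, so a direction is read against these medians.

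The catecholamines are made from tyrosine in a chain of enzymes. Tyrosine hydroxylase (Th) makes DOPA, the aromatic amino acid decarboxylase (Ddc) turns DOPA into dopamine, dopamine beta-hydroxylase (Dbh) makes noradrenaline, and Pnmt makes adrenaline. Serotonin is made from tryptophan by a tryptophan hydroxylase (Tph1 or Tph2) and then by the same decarboxylase. The vesicular transporters Slc18a1 (VMAT1) and Slc18a2 (VMAT2) load the amines into secretory granules or vesicles, and Slc6a2 (noradrenaline) and Slc6a4 (serotonin) carry released amine back into cells. Sympathetic neurons and adrenal chromaffin cells hold the complete noradrenaline chain. Islet cells of the pancreas are known to express the decarboxylase, and in pregnancy mouse beta cells make serotonin.

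The genes for both hydroxylases that open the chains, Th and Tph2, were higher in the tumours and had 0 counts in normal pancreas, while no count of Dbh was found in any library. The granule transporter Slc18a1 was higher in the tumours and the serotonin transporter Slc6a4 was lower. In edgeR's quasi-likelihood test across 16810 genes, 5 of the 10 genes passed the filter on low counts, and of these 3 were called higher (Th, Tph2, Slc18a1), 1 lower (Slc6a4) and 1 (Ddc) did not pass. Over all tested genes 67.0% were called, with 39.2% higher and 27.8% lower in the tumours, so a call by itself was common in this comparison. With total counts only the same 5 genes gave 4 higher and 1 lower, where 95.7% of all genes were called. DESeq2 called the same 3 genes higher and the same gene lower among 6 of the 10, where 57.5% of 19405 genes were called and 33.6% were higher. Th and Tph2 entered the test only through their tumour counts. Fewer cells that express a gene and less RNA of it per cell cannot be told apart in these bulk samples.

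**Figure D1:**
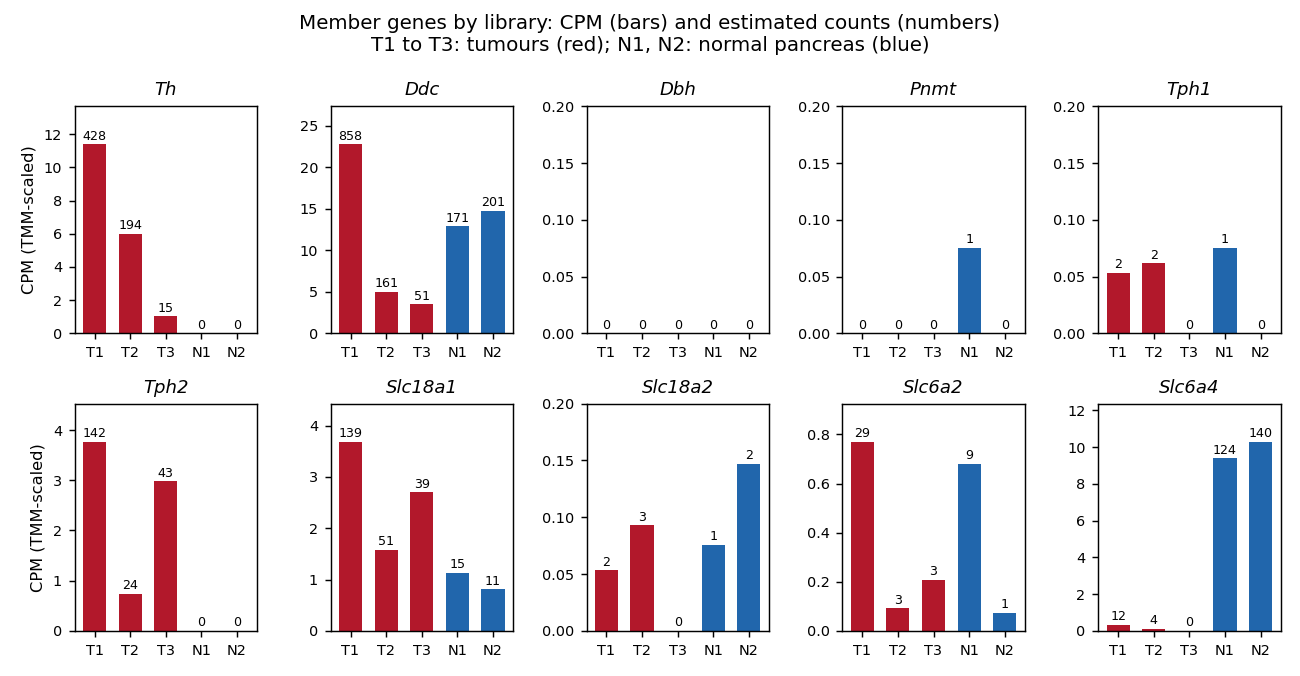
Level of each of the 10 genes in each library, as CPM on the TMM-scaled library size (bars, own vertical axis per gene, starting at 0), with the estimated count printed above the bar. T1 to T3 are the tumours and N1 and N2 normal pancreas. Th and Tph2 have bars in the 3 tumours and none in normal pancreas, Slc6a4 is high only in normal pancreas, and Dbh is at 0 throughout.

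The promoter windows of the 3 genes with the clearest separation are given because they head the synthesis and uptake steps, and because the tyrosine hydroxylase promoter is also the one named for the Cre allele. RefSeq (build GRCm38.p6) gave a window for 7 of the 10 genes. Each window runs from 250 bases before to 50 bases after the start site. Both strands were searched for 4 motifs, the cyclic AMP response element TGACGTCA, the E-box CACGTG, the TATA box TATAAA and the GC box GGGCGG. Capitals below mark matches, written as they stand on the printed strand, and no 2 matches overlapped.
Th, chr7:142899946-142900245, minus strand: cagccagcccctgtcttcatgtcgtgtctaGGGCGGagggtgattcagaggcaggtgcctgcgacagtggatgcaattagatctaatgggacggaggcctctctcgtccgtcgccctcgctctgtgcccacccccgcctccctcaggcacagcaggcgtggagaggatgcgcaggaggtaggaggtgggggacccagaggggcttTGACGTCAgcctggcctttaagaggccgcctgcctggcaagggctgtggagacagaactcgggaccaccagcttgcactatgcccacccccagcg
Tph2, chr10:115184973-115185272, minus strand: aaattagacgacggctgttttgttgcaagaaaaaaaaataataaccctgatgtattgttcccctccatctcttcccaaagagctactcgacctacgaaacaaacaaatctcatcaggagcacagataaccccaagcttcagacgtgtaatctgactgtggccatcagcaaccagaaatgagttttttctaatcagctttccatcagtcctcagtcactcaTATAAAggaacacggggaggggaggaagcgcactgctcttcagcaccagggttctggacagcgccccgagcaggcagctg
Slc6a4, chr11:76998347-76998646, plus strand: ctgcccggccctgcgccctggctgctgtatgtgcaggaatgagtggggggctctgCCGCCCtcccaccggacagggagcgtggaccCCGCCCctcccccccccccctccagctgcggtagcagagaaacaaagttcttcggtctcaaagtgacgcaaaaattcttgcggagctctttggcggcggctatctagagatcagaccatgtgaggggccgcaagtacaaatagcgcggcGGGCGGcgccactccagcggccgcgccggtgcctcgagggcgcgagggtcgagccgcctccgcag
The Th window held TGACGTCA starting at position -45 from the start site and GGGCGG at -220. The Tph2 window held TATAAA at -30 and none of the other motifs. In the Slc6a4 window GGGCGG stood at -15 and, on the other strand (printed as its complement), at -195 and -164. TGACGTCA occurred in 1.79% of 32851 RefSeq windows of the same length, TATAAA in 13.6%, GGGCGG in 35.7% and CACGTG, which none of the 9 windows of these genes held, in 7.15%. Among the other genes with a window, Slc18a2 also held TGACGTCA, at -4. These matches are letters in a window, and binding was not measured here.

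Reads were assigned to Th in every tumour and in neither normal pancreas. Th (ENSMUSG00000000214.11, chromosome 7, 142892752 to 142931128, minus strand, GRCm38) had 428, 194 and 15 counts in tumour replicates 1, 2 and 3, against 0 and 0 counts in normal pancreas. These are 11.4, 6.01 and 1.04 CPM in the tumours. The groups did not overlap, and the tumours were far apart from each other, with the lowest in replicate 3. All tumours carry the TH-Cre allele and no normal pancreas does. The labels do not say how that allele was built, so whether Th sequence within it adds to these counts, and so to the folds and ratios of Th below, was not tested. Pooled over the libraries, Th was at least 67.5-fold higher in the tumours, counting the 0 of normal pancreas as 3 counts over both libraries (edgeR adjusted p = 0.0104). That bound was 40.0-fold without tumour replicate 1, and 34.2-fold and 33.3-fold without normal pancreas replicates 1 and 2. Without a tumour library, adjusted p ran from 0.00167 to 0.0173 in edgeR. Th entered each fit only through its tumour counts, so this range gives no separate support for the difference.

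Per transcript length, Th ranked among the better expressed genes in tumour replicate 1 and near the middle in replicate 3. Its level of 6.19 TPM in replicate 1 was above 82.5% of protein-coding genes. In replicates 2 and 3 it was 3.07 and 0.49 TPM, above 69.8% and 46.6% of them. The transcript length that RSEM assigned to Th was 1829 bases in replicates 1 and 2, which is the length of the annotated protein-coding transcript Th-201. In replicate 3, with its 15 counts, it was 1681 bases.

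Ddc, which serves both chains, was present in all 5 libraries and did not separate the groups. It (ENSMUSG00000020182.16, chromosome 11, 11814101 to 11898144, minus strand) had 22.8, 4.99 and 3.53 CPM in the tumours, against 12.9 and 14.8 CPM in normal pancreas. Tumour replicate 1 lay above both normal libraries and the other two tumours lay below both. The log2 difference was -0.38 (± 0.75 SE, with adjusted p = 0.667 in edgeR). Tumour replicate 1 held 80.2% of the 1070 Ddc counts of the tumours. Without it Ddc was called lower, at -1.67 (± 0.23 SE, with adjusted p = 0.00119 in edgeR), and with total counts only it was called higher, at 2.82 (± 0.86 SE, with adjusted p = 0.0150 in edgeR). Relative to the median of all genes, the difference was -0.76 with TMM and -0.73 with total counts only.

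The insulin genes, markers of beta cells, followed the same order across the tumours as Ddc. Ins2 had 30.0, 6.44 and 3.88 CPM in the tumours, against 33.9 and 35.9 CPM in normal pancreas. Ins1 had 19.0, 3.96 and 1.94 CPM in the tumours, against 16.7 and 14.4 CPM in normal pancreas. As a ratio of TPM, Ddc over Ins2 was 0.139, 0.137 and 0.185 in the tumours, against 0.0671 and 0.0689 in normal pancreas. All of the tumour ratios were above both normal ratios, and the part of beta cells in the Ddc values was not tested. Ins2 is also a neighbour of Th on chromosome 7, with 149370 bases between the annotated genes, and Ins2 had counts in normal pancreas, where Th had none.

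The last steps of the catecholamine chain were missing from the counts. Dbh (ENSMUSG00000000889.8, chromosome 2, 27165233 to 27183200, plus strand) had 0 counts in all 3 tumours and in both normal pancreas libraries. A count of 0 over the group allows up to 0.0356 CPM in the tumours and 0.112 CPM in normal pancreas. For scale, this upper limit is below the lowest Th value of any tumour, 1.04 CPM, so at this depth each tumour had Th counts and no detectable Dbh. Pnmt (ENSMUSG00000038216.7, chromosome 11, 98386450 to 98388181, plus strand) had 0 counts in every tumour, against 1 and 0 counts in normal pancreas. Limits and intervals of this kind cover counting error only.

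Of the tryptophan hydroxylases, the tumours held Tph2, the form known from serotonin neurons, and almost no Tph1, the form known from enterochromaffin cells, pineal gland and beta cells of pregnancy. Tph2 (ENSMUSG00000006764.8, chromosome 10, 115078641 to 115185022, minus strand) had 142, 24 and 43 counts in the tumours, against 0 and 0 counts in normal pancreas. Its CPM were 3.77, 0.743 and 2.98 in the tumours. Every tumour was above both normal libraries, and replicate 2, which had the middle Th value, was the lowest here. Tph2 was at least 22.1-fold higher in the tumours (edgeR adjusted p = 0.00704). The bound was 12.8-fold without tumour replicate 1, and 11.2-fold and 10.9-fold without normal pancreas replicates 1 and 2.

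Tph1 (ENSMUSG00000040046.14, chromosome 7, 46644641 to 46672537, minus strand) had 2, 2 and 0 counts in the tumours, against 1 and 0 counts in normal pancreas. The groups overlapped, and the ratio of pooled counts, 1.27, had an exact 95% interval of 0.126 to 62.6. Within the tumours Tph2 made up 142 of 144, 24 of 26 and 43 of 43 counts of the pair, or 98.6% (exact Clopper-Pearson 95% interval 95.1 to 99.8), 92.3% (74.9 to 99.1) and all of them, with a lower limit of 91.8%. All counts of Tph2 in the tumours were assigned to a length of 2626 bases, that of the protein-coding transcript Tph2-201.

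The balance between the tyrosine and tryptophan hydroxylases differed between tumours. Th made up 74.8% of the counts of Th, Tph1 and Tph2 together in tumour replicate 1 (exact 95% interval 71.1 to 78.3), 88.2% in replicate 2 (83.2 to 92.1) and 25.9% in replicate 3 (15.3 to 39.0). None of these counting intervals overlapped. Per length, by TPM, the shares were 81.4%, 90.3% and 36.6%. Th over Tph2 was thus 4.49, 11.8 and 0.576 as a TPM ratio, above 1 in replicates 1 and 2 and below 1 in replicate 3. Normal pancreas gave no such ratio, with both genes at 0.

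Between the vesicular transporters, Slc18a1, known from endocrine and chromaffin cells, carried nearly all counts in both tissues, and Slc18a2, the form of aminergic neurons, was near 0. Slc18a1 (ENSMUSG00000036330.12, chromosome 8, 69037711 to 69089235, minus strand) had 139, 51 and 39 counts in the tumours, against 15 and 11 counts in normal pancreas. This was 3.69, 1.58 and 2.7 CPM in the tumours, against 1.13 and 0.810 CPM in normal pancreas. The groups did not overlap, though the lowest tumour was close to the higher normal library. Slc18a1 averaged 2.66 ± 1.06 CPM in the tumours and 0.972 ± 0.229 CPM in normal pancreas (SD, n = 3 and n = 2), a log2 difference of 1.45 (± 0.49 SE, with adjusted p = 0.0371 in edgeR). The call was lost without tumour replicate 1 (adjusted p = 0.0807), tumour replicate 3 (0.0706), normal pancreas replicate 1 (0.0959) or normal pancreas replicate 2 (0.174), all from edgeR, and the direction was kept in each.

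Slc18a2 (ENSMUSG00000025094.8, chromosome 19, 59260896 to 59296012, plus strand) had 2, 3 and 0 counts in the tumours, against 1 and 2 counts in normal pancreas, and was not tested. Its ratio of pooled counts was 0.530, with an exact 95% interval of 0.103 to 3.41. It shares 111 exon bases with the antisense gene Gm29261, which had 0 counts in every library, and the other 9 genes share no exon base with another gene. Slc18a1 made up 229 of 234 counts of the pair in the tumours, or 97.9% (exact 95% interval 95.1 to 99.3), and 26 of 29 counts in normal pancreas, or 89.7% (72.6 to 97.8). These intervals overlapped.

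The plasma membrane transporters behaved differently from each other. Slc6a4 (ENSMUSG00000020838.12, chromosome 11, 76998603 to 77032340, plus strand) had 12, 4 and 0 counts in the tumours, against 124 and 140 counts in normal pancreas. That is 0.319, 0.124 and 0 CPM in the tumours, against 9.38 and 10.3 CPM in normal pancreas. Every tumour was far below both normal libraries. Slc6a4 fell by 5.74 on the log2 scale (± 0.61 SE, with adjusted p = 3.66e-04 in edgeR). With a library left out the difference ran from -6.77 to -5.38. It stayed lower with total counts only, at -2.61 (edgeR adjusted p = 0.0137), although 93.3% of all genes were called higher and 2.37% lower under that scaling.

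Slc6a4 is a known gene of platelets and of some mast cells, which take up serotonin. The 7 platelet markers summed to 7.34, 6.72 and 3.22 TPM in the tumours, against 2.52 and 0.970 TPM in normal pancreas, with Gp1ba, Gp1bb, Gp9 and Treml1 at 0 in both normal libraries. Of 8 mast cell markers, all had counts in the tumours and 5 in normal pancreas, where Tpsab1, Ms4a2 and Fcer1a were at 0. Their sum was 2.82, 3.13 and 1.56 TPM in the tumours, against 2.71 and 2.0 TPM in normal pancreas. By TPM the sums overlapped for mast cells and were higher in every tumour for platelets. Kit gave 1.97, 1.37 and 0.940 TPM of the mast cell sums in the tumours, against 2.07 and 1.73 TPM in normal pancreas. Pf4 gave 6.36, 5.28 and 2.31 TPM of the platelet sums in the tumours, against 2.33 and 0.970 TPM in normal pancreas. In CPM, the mast cell marker Kit, a receptor that other cells also express, was lower like Slc6a4, at 6.51, 7.0 and 3.25 CPM in the tumours, against 21.9 and 23.2 CPM in normal pancreas (adjusted p = 0.00162 in edgeR, a log2 difference of -1.98). Tpsb2, the only other mast cell marker tested in edgeR, did not pass (a log2 difference of 2.80). It had 0.266, 0.526 and 0 CPM in the tumours, against 0.0756 and 0 CPM in normal pancreas. DESeq2 tested 5 of the 8 mast cell markers, and 3 did not pass. The 2 called lower there were Kit and Cpa3. Cpa3 had 0.239, 0.248 and 0.138 CPM in the tumours, against 1.29 and 0.957 CPM in normal pancreas. The platelet gene Pf4 overlapped between the groups, at 2.55, 1.98 and 1.25 CPM in the tumours, against 2.87 and 1.40 CPM in normal pancreas, and Ppbp was called higher (edgeR adjusted p = 0.0163). The part of mast cells and platelets in the Slc6a4 values was not tested.

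Slc6a2 (ENSMUSG00000055368.14, chromosome 8, 92960079 to 93001667, plus strand) had 29, 3 and 3 counts in the tumours, against 9 and 1 counts in normal pancreas. It missed the filter on low counts. At 0.771, 0.0929 and 0.208 CPM in the tumours, against 0.680 and 0.0736 CPM in normal pancreas, the groups overlapped fully. With no filter the log2 difference was 0.05 (± 1.07 SE, with adjusted p = 0.970 in edgeR). The tumour with most Slc6a2, replicate 1, was also the one with most Th, Ddc, Tph2 and Slc18a1.

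**Figure D2:**
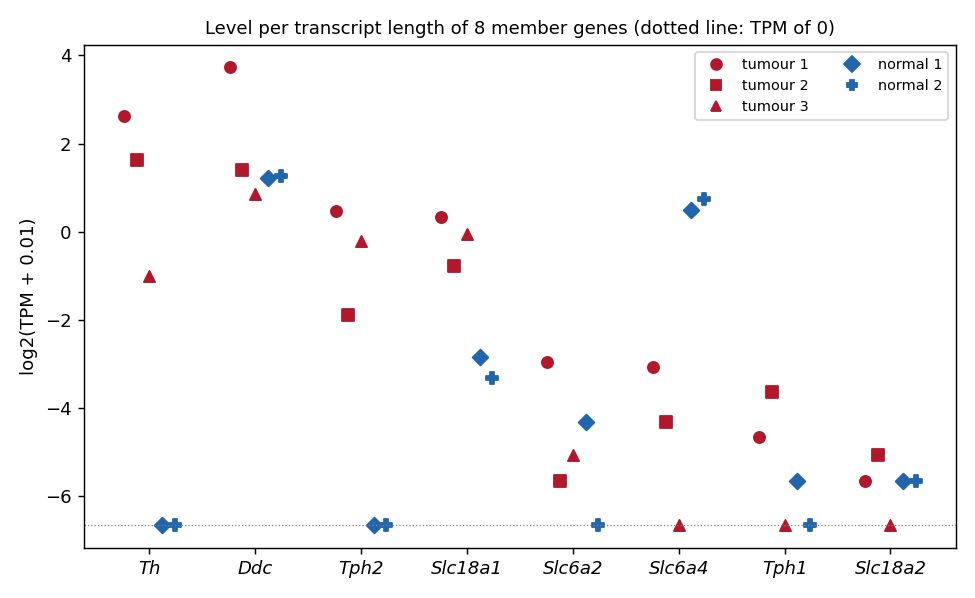
Level per transcript length of the 8 genes with counts in a tumour, as log2(TPM + 0.01), for each library. Red symbols are the tumours, blue symbols normal pancreas, and the dotted line marks a TPM of 0. Th and Tph2 sit on the dotted line in normal pancreas, Ddc is the highest of the genes in tumour replicate 1, and Slc6a4 is the gene with both normal libraries above all tumours.

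Per length, the order of these genes differed between the tissues. In tumour replicate 1 the order by TPM was Ddc (13.2), Th (6.19), Tph2 (1.38) and Slc18a1 (1.26). Tumour replicate 2 had Th at 3.07 and Ddc at 2.62 TPM, with Slc18a1 at 0.57 above Tph2 at 0.26 TPM. Replicate 3 had Ddc at 1.79, Slc18a1 at 0.96, Tph2 at 0.85 and Th at 0.49 TPM. In normal pancreas Ddc (2.33 and 2.40 TPM) and Slc6a4 (1.40 and 1.66 TPM) led, followed by Slc18a1 (0.13 and 0.09 TPM). Th over Ddc, as a TPM ratio, was 0.471, 1.17 and 0.274 in the tumours, so Th exceeded the decarboxylase in replicate 2 alone.

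**Figure D3:**
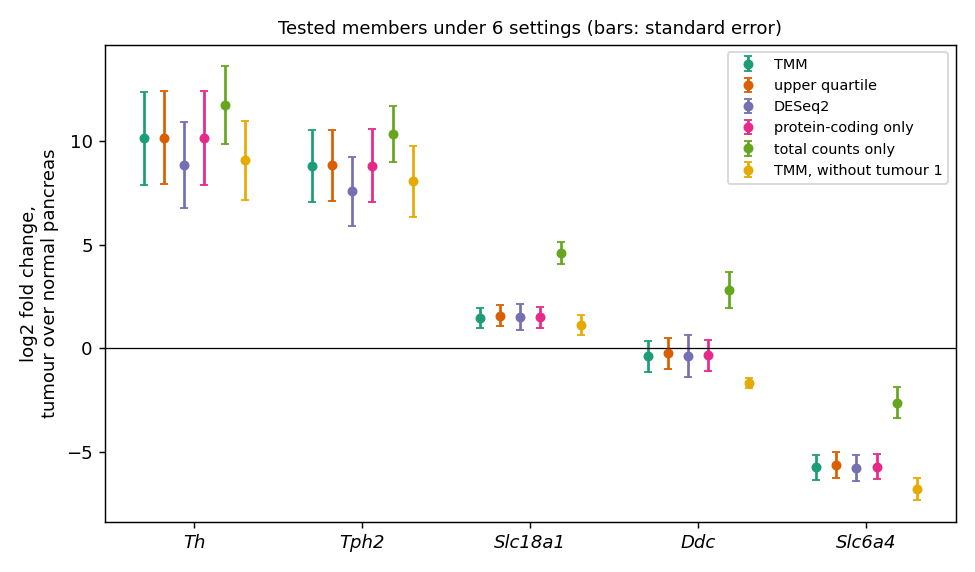
Log2 fold change of the tumours over normal pancreas for the 5 tested genes under 6 settings, with the standard error as bars. The values of Th and Tph2, at 0 in normal pancreas, depend on the prior count that the fit adds. Slc6a4 is below 0 and Slc18a1 above 0 under all 6 settings, and Ddc is above 0 with total counts only.

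The genes closest to Th over the 5 libraries were named by the Euclidean distance of log2(TPM + 0.1) among protein-coding genes. The nearest was Hist1h2ad, a histone H2A gene, at a distance of 0.713, with 3.82, 3.43 and 0.55 TPM in the tumours and 0 in normal pancreas. Cabp7, which encodes a calcium-binding protein, followed at 0.786, with 4.34, 2.48 and 0.75 TPM in the tumours and 0 in normal pancreas. BC051142 (1.29), Plcxd3 (1.33) and S100a9 (1.41) came next. All 5 had their lowest tumour value in replicate 3, as Th did, and all 5 were at 0.07 TPM or below in normal pancreas. This likeness follows from the choice, because the genes were picked by their distance to Th in these same libraries.

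Other genes of the amine pathways were listed by role, 94 genes in 11 lists. Of these 52 were tested, with 21 higher, 20 lower and 11 not past the test in the tumours. Over all tested genes 39.2% were called higher and 27.8% lower. The counts by list below are to be read against these shares. Their median log2 difference was 0.08, against 0.38 over all 16810 tested genes. With total counts only, 46 were higher and 2 lower, with a median of 3.24 against 3.55 over all genes. Under that scaling 93.3% of all tested genes were called higher and 2.37% lower.

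Tetrahydrobiopterin is the cofactor that Th and the tryptophan hydroxylases need. Of its 7 listed genes 6 were tested, and with TMM the early steps of its synthesis from GTP differed in direction from the last step and from its recycling. Gch1, the GTP cyclohydrolase of the entry step, and Pts, of the step after it, were higher, and Spr, the sepiapterin reductase of the last step, and the recycling genes Qdpr, Pcbd1 and Pcbd2 were lower. Pts had 12.1, 13.5 and 13.0 CPM in the tumours, against 3.25 and 2.58 CPM in normal pancreas (a log2 difference of 2.14 ± 0.19 SE, with adjusted p = 1.78e-04 in edgeR). Gch1, named after its values were seen, had 50.1, 37.6 and 64.7 CPM in the tumours, against 13.1 and 13.7 CPM in normal pancreas. Both genes had every tumour above both normal libraries. Qdpr had 21.1, 20.8 and 24.5 CPM in the tumours, against 112 and 99.1 CPM in normal pancreas (a log2 difference of -2.25 ± 0.14 SE, with adjusted p = 5.96e-05 in edgeR). Spr was lower with TMM (a log2 difference of -1.71 ± 0.14 SE, with adjusted p = 1.41e-04 in edgeR). With total counts only all 6 tested genes were called higher, Qdpr at 0.92 and Spr at 1.46 on the log2 scale, below the median of 3.55 over all genes. With limma on log2(TPM + 1) and log2(TPM + 0.1), Spr did not pass (-0.24 and -0.28, limma adjusted p = 0.136 and 0.141). Both values were below the all-gene medians of these fits, 0.62 and 1.40. The median of the list was -1.85.

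The level of Gch1 did not follow that of Th among the tumours. Gch1 over Th was 2.74, 3.94 and 35.4 as a TPM ratio in tumour replicates 1, 2 and 3. Replicate 3, the lowest for Th, was the highest for Gch1 in CPM.

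Among 8 genes of monoamine breakdown, all tested, 1 was higher, 5 were lower and 2 did not pass, with a median of -0.84. Maob, a monoamine oxidase of the mitochondrial outer membrane, had 2.15, 3.50 and 2.84 CPM in the tumours, against 9.15 and 8.03 CPM in normal pancreas (a log2 difference of -1.60 ± 0.26 SE, with adjusted p = 0.00222 in edgeR). Aldh2, the mitochondrial aldehyde dehydrogenase that acts on the aldehydes so formed, fell by 3.45 (± 0.25 SE, with adjusted p = 9.09e-05 in edgeR). Maoa, Akr1a1 and Akr1b3 were the other lower genes. By TPM, each of them instead had every tumour above both normal libraries, and each was called higher with total counts only. With limma on log2(TPM + 1) Maob was at -0.04 (limma adjusted p = 0.834), against an all-gene median of 0.62. With total counts only Maob was instead called higher, at 1.58, and Aldh2 did not pass, at -0.26 (edgeR adjusted p = 0.362).

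Of 8 other amine carriers only Slc29a4 and Slc18b1 passed the filter. Slc29a4, the plasma membrane monoamine transporter (PMAT) that carries serotonin and dopamine with low affinity, had 29.9, 22.1 and 29.0 CPM in the tumours, against 0.0756 and 0.295 CPM in normal pancreas. The tumours were close together and far above both normal libraries (a log2 difference of 7.13 ± 0.40 SE, with adjusted p = 4.03e-05 in edgeR). The difference was 6.49 and 8.40 without normal pancreas replicates 1 and 2. By TPM Slc29a4 was at 14.1, 25.4 and 17.2 times the level of Slc18a1 in the tumours, against 0.0769 and 0.333 times in normal pancreas. Slc6a3, the dopamine transporter, had 4, 0 and 2 counts in the tumours, against 0 and 0 counts in normal pancreas, and was not tested. Slc18b1, a vesicular polyamine transporter, did not pass (a log2 difference of -0.48 ± 0.29 SE, with adjusted p = 0.177 in edgeR) and was called higher with total counts only, at 2.68.

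**Figure D4:**
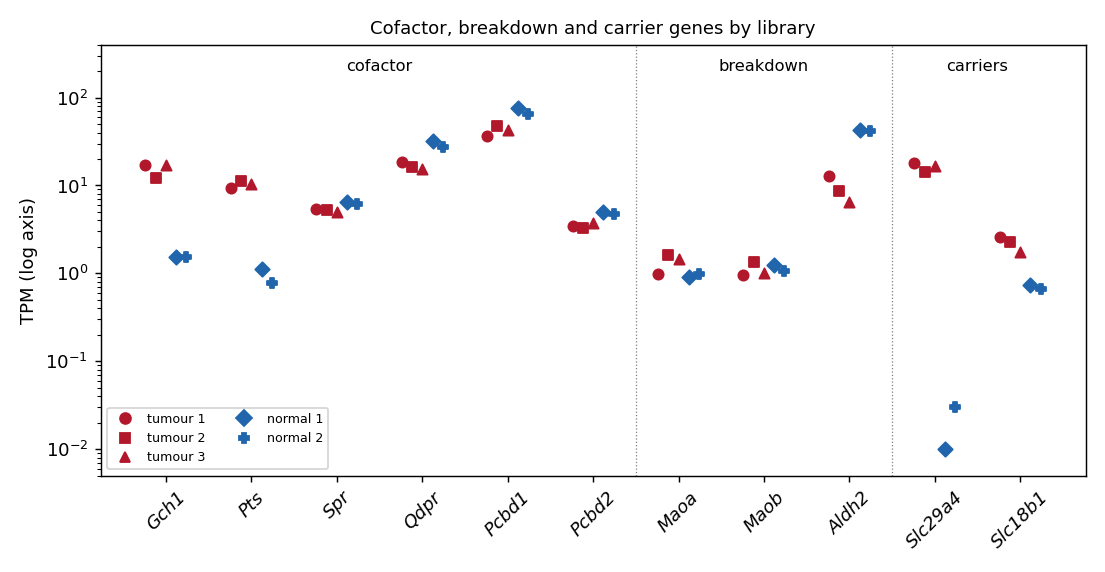
TPM on a log axis of the tested cofactor and carrier genes and of 3 of the 8 breakdown genes, for each library. Red symbols are the tumours and blue symbols normal pancreas. Gch1, Pts, Slc29a4, Maoa and Slc18b1 have all tumours above both normal libraries. Qdpr, Spr, Pcbd1, Pcbd2 and Aldh2 have all tumours below them. Spr, Maob, Maoa and Slc18b1 stand higher here relative to normal pancreas than in CPM.

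The supply of the amino acid precursors showed large differences in both directions. Of 9 listed genes 7 were tested, 3 of them higher and 4 lower, with a median of -2.48. Slc16a10, an aromatic amino acid carrier (TAT1), had 54.7, 47.2 and 74.4 CPM in the tumours, against 0.605 and 0.368 CPM in normal pancreas (a log2 difference of 6.90 ± 0.36 SE, with adjusted p = 3.44e-05 in edgeR). Slc7a8, a carrier of large neutral amino acids, had 7.87, 10.9 and 14.9 CPM in the tumours, against 249 and 281 CPM in normal pancreas (a log2 difference of -4.57 ± 0.28 SE, with adjusted p = 5.42e-05 in edgeR). Slc7a8 stayed lower with total counts only, at -1.41. Slc7a5 and Slc3a2 were lower too with TMM, and Slc7a5 was called higher with total counts only. Tat and Tdo2, which break down tyrosine and tryptophan, were higher with 0 counts in normal pancreas.

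The 11 genes of hydroxylase regulation, which hold kinases and 14-3-3 proteins that act on Th and the granule cytochrome Cyb561, were all tested, with 4 higher, 5 lower and 2 not past, and a median of -0.38. Prkar1a, a regulatory subunit of the cyclic AMP dependent kinase, had 256, 208 and 475 CPM in the tumours, against 58.8 and 63.3 CPM in normal pancreas (a log2 difference of 2.36 ± 0.39 SE, with adjusted p = 0.00228 in edgeR). Its catalytic partner Prkaca was lower (a log2 difference of -1.02 ± 0.17 SE, with adjusted p = 0.00259 in edgeR), as was the 14-3-3 gene Ywhae (a log2 difference of -1.01 ± 0.17 SE, with adjusted p = 0.00255 in edgeR). With total counts only, all 11 genes were called higher, with Prkaca and Ywhae at 2.15 each.

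The enzymes of melatonin and histamine were listed beside those of serotonin. Hdc, the histidine decarboxylase that makes histamine, had 35, 22 and 11 counts in the tumours, against 0 and 0 counts in normal pancreas (edgeR adjusted p = 0.00274). At 0.930, 0.681 and 0.762 CPM the tumours were close together, unlike Th. Aoc1, an amine oxidase that degrades histamine, was also higher (edgeR adjusted p = 0.0121), and the histamine methyltransferase Hnmt was lower (a log2 difference of -2.52 ± 0.60 SE, with adjusted p = 0.00980 in edgeR), but neither passed when either normal library was left out. Of the 2 melatonin enzymes, Aanat had 2 counts over the tumours and 0 in normal pancreas, and Asmt had none.

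Receptors for the amines were mostly below the filter. Of 9 adrenergic receptors 4 were tested, with 2 higher and 1 lower. Adra2a, an inhibitory receptor for noradrenaline, had 24, 6.69 and 8.59 CPM in the tumours, against 0.302 and 0.736 CPM in normal pancreas (a log2 difference of 4.65 ± 0.82 SE, with adjusted p = 0.00292 in edgeR). With a library left out the difference ran from 3.86 to 5.44. Its tumour values were highest in replicate 1, and all tumours were above both normal libraries. Adra1a was higher (edgeR adjusted p = 0.00975), with 353, 27 and 74 counts in the tumours, against 0 and 1 counts in normal pancreas, but did not pass without either normal library. Of 14 serotonin receptors 2 were tested, Htr1b (edgeR adjusted p = 0.0329) and Htr7 (edgeR adjusted p = 0.0197), both higher at under 1 CPM in every library. Htr1b lost the call without normal pancreas replicate 1 or tumour replicate 2 or 3, and Htr7 without either normal library and in DESeq2. None of the 5 dopamine receptors passed the filter, and DESeq2, with its own filter, called Drd3 higher.

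**Figure D5:**
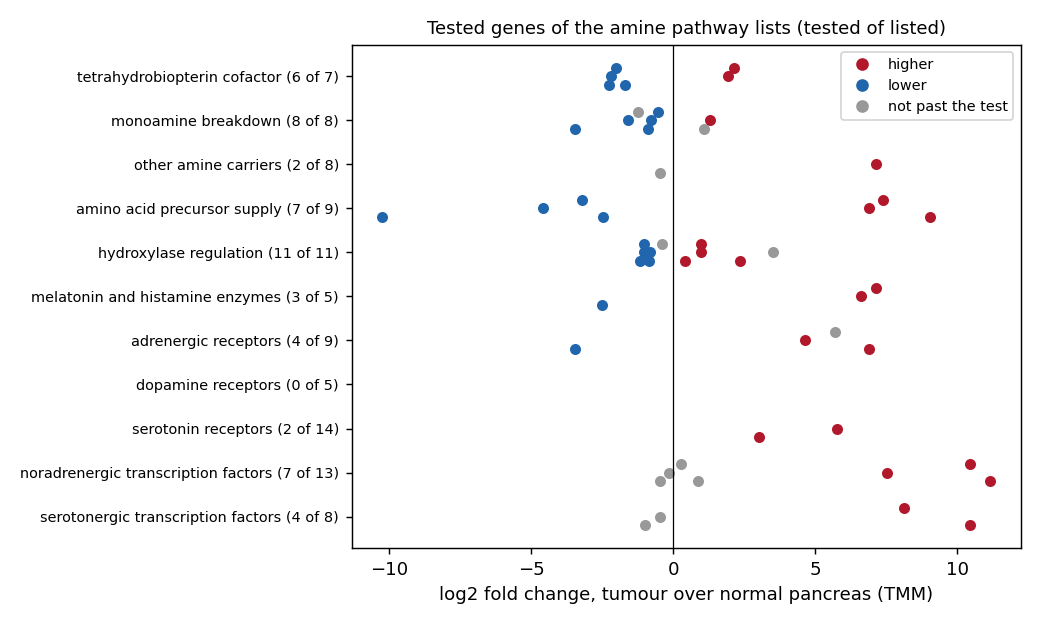
Log2 fold change of the tumours over normal pancreas (TMM) for each tested gene of the 11 lists, with the number tested of those listed beside the name. Red points were called higher, blue points lower, and grey points did not pass the test. The carriers, precursor supply, melatonin and histamine enzymes, both receptor lists with tested genes and both transcription factor lists hold points beyond 5.

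Of 13 listed transcription factors of noradrenergic cells 7 were tested, with 3 higher, none lower and 4 not past, and a median of 0.86. Insm1, a zinc finger factor of neuroendocrine cells, had 65.6, 47.8 and 67.7 CPM in the tumours, against 0 and 0.0736 CPM in normal pancreas (edgeR adjusted p = 2.73e-05). Isl1, a homeobox factor of islets, sympathetic neurons and motor neurons, had 109.5, 63.1 and 102 CPM in the tumours, against 0.605 and 0.368 CPM in normal pancreas (a log2 difference of 7.54 ± 0.42 SE, with adjusted p = 4.03e-05 in edgeR). Sox11 had 130, 545 and 269 counts in the tumours, against 0 and 0 counts in normal pancreas (edgeR adjusted p = 0.00429).

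Phox2a, a homeobox factor of autonomic neurons, had 1, 0 and 0 counts in the tumours, against 0 and 0 in normal pancreas. Gata3 had 2, 4 and 0 counts in the tumours, against 1 and 1 counts in normal pancreas. Hand2 had 0.718, 1.08 and 0.623 CPM in the tumours, against 0.302 and 0.589 CPM in normal pancreas, and did not pass (a log2 difference of 0.86 ± 0.55 SE, with adjusted p = 0.20 in edgeR). These 3 factors were low or near 0, while of the 6 tested genes of the sympathetic and chromaffin marker list Chga, Npy and Cartpt were called higher and Penk lower in the tumours.

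Of 8 serotonergic factors 4 were tested, with 2 higher and none lower. Neurod1 had 23.8, 18.2 and 25.1 CPM in the tumours, against 0 and 0.147 CPM in normal pancreas (edgeR adjusted p = 5.70e-05), and Insm1 is in this list as well. Nkx2-2, shared by serotonin neurons and islets, did not pass (a log2 difference of -0.98 ± 0.55 SE, with adjusted p = 0.156 in edgeR). It was called lower with tumour replicates 1 and 2 summed as a single sample (edgeR adjusted p = 0.0254) and without tumour replicate 2 (edgeR adjusted p = 0.0290). Lmx1a had 0 counts in the tumours, against 0 and 1 counts in normal pancreas, and Fev had 2, 0 and 24 counts in the tumours, against 0 and 0 counts in normal pancreas.

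Marker lists of the cells that could hold these genes were summed as TPM in each library. The 10 sympathetic and chromaffin markers, of which 9 had counts in the tumours and 7 in normal pancreas, summed to 523, 80.2 and 347 TPM in the tumours, against 2.16 and 2.35 TPM in normal pancreas, and Chga with Npy made up nearly all of the tumour sum. Chga had 342, 74.9 and 280.3 TPM and Npy 176, 3.50 and 64.5 TPM in the tumours. The 8 enterochromaffin markers, which share Chga, summed to 1071, 389.6 and 780.4 TPM in the tumours, against 1.44 and 1.39 TPM in normal pancreas, with Lmx1a at 0 in the tumours. The 6 delta cell markers, which include somatostatin, reached 31191, 11940.0 and 19808 TPM in the tumours, against 1.29 and 2.25 TPM in normal pancreas. The 8 beta cell markers had 5715, 2894 and 3971 TPM in the tumours, against 43.0 and 42.8 TPM in normal pancreas, and Iapp alone gave 5599, 2871 and 3959 TPM of the tumour sums. Of the 5 tested beta cell markers Iapp was called higher and the other 4, Ins1 and Ins2 among them, did not pass. All 4 of these sums were lowest in tumour replicate 2, which was the lowest tumour for Tph2 and Slc18a1 in CPM but not for Th, and their part in the Th and Tph2 values was not tested.

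Adrenal cortex markers, which would accompany adrenal tissue, summed to 0.290, 0.260 and 0.260 TPM in the tumours, against 0.20 and 0.070 TPM in normal pancreas, with Cyp11b1 and Hsd3b1 at 0 in all tumours. Kidney tubule markers summed to 0.060, 0.140 and 0.220 TPM in the tumours, against 0.20 and 0.380 TPM in normal pancreas, with Umod at 0 in all tumours. Schwann markers had 0.810, 0.670 and 0.530 TPM in the tumours, against 0.140 and 0.270 TPM in normal pancreas. Duct markers had 20.4, 12.2 and 18.7 TPM in the tumours, against 15.3 and 13.5 TPM in normal pancreas. The 6 intrinsic neuron markers had 29.6, 24.5 and 24.9 TPM in the tumours, against 0.010 and 0 TPM in normal pancreas. Snap25, at 23.8, 20.6 and 20.6 TPM, and Elavl4, at 5.79, 3.86 and 4.32 TPM, made up nearly all of the tumour sums, and Chat, Slc18a3, Vip and Nos1 had at most 5 counts in any tumour.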

How the data were processed

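RNA of 3 tumours and 2 normal pancreas samples was measured by RNA sequencing. The submitters' processing notes name RSEM 1.31, STAR 2.7, Trim Galore 0.60, mm10 and GRCm38. Strandedness is not given in the sources used here. Gene tables of expected counts (estimated by RSEM), of TPM values and of another kind of value, transcript length in bases, are those the authors deposited. The FPKM table was not used, and 92 spike-in rows were left out. Rounded counts went into edgeR 4.0.16 under R 4.3.3 (glmQLFTest, TMM, filterByExpr), with Benjamini-Hochberg adjustment over 16810 genes and a threshold of 0.05. Log2 values are tumour over normal pancreas, and the SE comes from the F statistic. DESeq2 1.42.0, limma 3.58.1 on log2(TPM + 1) and log2(TPM + 0.1), other scalings and filters, tumour replicates 1 and 2 summed, and each library left out were the alternatives. Floors use 3 counts over the group. Genes are annotated by GENCODE M21 (GRCm38).

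The 10 genes, the pathway and marker lists and the tests were chosen with earlier results of these data known. Named genes are the 10 genes, Slc6a3, Hdc, up to 3 members of each list with the smallest p, markers at 0 and the 5 nearest to Th; others were named with their values in view. Some genes, among them Myc, are not reported here. No label says that replicates of a tissue came from separate animals, so the spread that p-values rest on may be technical.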

Additional observations from a re-analysis of the deposited data

How the results depend on the processing

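The differences of Th, Tph2 and Slc6a4 kept their direction under every alternative run. They stayed past the threshold under each alternative that kept both normal libraries. Th and Tph2, at 0 counts in normal pancreas, entered these fits only through their tumour counts, so their calls give no separate support. Leaving out libraries gave 2 to 3 of the 10 genes higher and 1 to 2 lower, the second lower gene being Ddc without tumour replicate 1. Of the 52 tested pathway genes, 46 were higher with total counts only and 33 with limma on log2(TPM + 0.1), against 21 as reported. Lower genes numbered 2 with total counts only and 9 with limma at either pseudocount, against 20, and 13 to 23 with a library left out, the 13 being without normal pancreas replicate 2.

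Among the tested members and the pathway genes named by smallest p, differences that changed sign were mostly those scaled by the library total. With total counts only they were 2.82 for Ddc, 0.67 for Hnmt, 1.58 for Maob, 2.20 for Nkx2-2, 2.15 for Prkaca and for Ywhae, 0.92 for Qdpr, 2.68 for Slc18b1 and 1.46 for Spr, each below the all-gene median of 3.55. With limma on log2(TPM + 1) and on log2(TPM + 0.1) they were 0.64 and 0.73 for Ddc, 0.03 and 0.02 for Nkx2-2, 0.39 and 0.43 for Prkaca, 0.91 and 1.52 for Slc18b1, and 0.97 and 1.0 for Ywhae. The all-gene medians in these 2 limma fits were 0.62 and 1.40. Of other pathway genes lower with TMM, Maoa, Akr1a1, Akr1b3, Pcbd1, Pcbd2, Slc7a5, Camk2b, Cyb561 and Mapkapk2 were called higher with total counts only. Ddc was at -1.67 without tumour replicate 1, where it passed, and at 0.04 without tumour replicate 3. The cause was not tested. Another 27 differences of single genes kept their direction and lost the call under an alternative, among them Spr (-0.24 and -0.28) and Maob (-0.04 and -0.07) with limma at the 2 pseudocounts. Nkx2-2 gained a call as lower with tumour replicates 1 and 2 summed (-1.02) and without tumour replicate 2 (-1.59).

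No paired analysis was possible because the replicate numbers follow accession order and no label pairs a tumour with a normal pancreas. Depth limits Dbh, Pnmt, Tph1, Slc18a2 and Slc6a2, where a count of 0 to 29 per library leaves small differences undetectable.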

Other observations

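Drd3, Slc22a3 and Fev of the lists were concentrated in a single tumour. Drd3, a dopamine receptor, had 52, 5 and 4 counts in tumour replicates 1, 2 and 3, against 0 and 0 counts in normal pancreas. Slc22a3, an organic cation carrier of the amines, had 0, 9 and 0 counts in the tumours, against 0 and 0 counts in normal pancreas. Fev, a factor of serotonin neurons, had 24 of its 26 counts in tumour replicate 3, the tumour with the lowest share of Th among the hydroxylases. These genes were picked after their values were seen and were below the filter of the edgeR test.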
